A study of Mus musculus with 3 samples.

Results

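The 8 genes described here encode integrin chains: Itga4, Itgb7, Itgb1, Itgal, Itgb2, Itga2b, Itgae and Itgam, chosen by name from 27998 genes in each of 3 single-cell libraries of sorted mouse bone marrow, 1 library per group. All mice were of the C57BL/6 background. The ALP library holds Tcf7EGFP/+ cells sorted as Lin-, Kit+, 2B4+ and a4b7-, with Flt3high and IL-7Ra+, the gate the series' design text calls common lymphoid progenitors. The ILCpro_WT library holds Tcf7EGFP/+ cells sorted as Lin-, Kit+, 2B4+, a4b7+ and Tcf7+, and the ILCpro_KO library holds Tcf7EGFPnull/- cells from that same gate. Every group carries an EGFP reporter at Tcf7, which encodes the transcription factor TCF-1, so the library named WT is heterozygous for the reporter allele. How many mice went into a library is not given. The ILC libraries carry the source labels EILP_WT and EILP_KO, and the study compared early innate lymphoid cell (ILC) progenitors with common lymphoid progenitors, with and without Tcf7. Itga4 and Itgb7 encode the antigen a4b7 used to sort, negative in ALP and positive in both ILC gates, so their difference between ALP and the ILC libraries is on the side the gate selected and is given as a description.

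Integrins are cell surface receptors made of an alpha and a beta chain that bind matrix or proteins on other cells. The a4 chain (Itga4) pairs with b7 (Itgb7) to bind Madcam1 on vessels of the gut, and with b1 (Itgb1) to bind Vcam1 and fibronectin in bone marrow. The aL chain (Itgal) and b2 (Itgb2) form LFA-1, which binds the Icam proteins, and aM (Itgam) with b2 forms Mac-1, known from myeloid cells. The aE chain (Itgae) pairs with b7 and binds E-cadherin, and aIIb (Itga2b) pairs with b3 (Itgb3) on platelets and is also present on early blood progenitors. Surface a4b7 is an established marker of ILC progenitors in bone marrow.

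The sequences upstream of the pair of sort genes are shown because these genes separate the gates and the genotypes differ in a transcription factor. They are the 250 bases before each annotated start in RefSeq, build GRCm38.p6, 5′ to 3′ on the strand of the gene, with motif matches in capitals.
Itga4, chr2:79255176-79255425, plus strand: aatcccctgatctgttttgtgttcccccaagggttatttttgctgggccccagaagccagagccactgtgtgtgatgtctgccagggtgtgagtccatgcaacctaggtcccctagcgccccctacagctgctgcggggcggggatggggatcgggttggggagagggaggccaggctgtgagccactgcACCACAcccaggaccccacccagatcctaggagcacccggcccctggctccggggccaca
Itgb7, chr15:102231936-102232185, minus strand: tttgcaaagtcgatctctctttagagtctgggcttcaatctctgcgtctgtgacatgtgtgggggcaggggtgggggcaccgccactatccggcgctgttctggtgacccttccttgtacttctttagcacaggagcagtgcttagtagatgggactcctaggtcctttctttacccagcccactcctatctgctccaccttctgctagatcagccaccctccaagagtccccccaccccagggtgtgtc
The letters of 3 motifs were searched on both strands: CTTTGA for TCF factors, TGTGGT for RUNX factors and GGAAGT for ETS factors, which do not overlap each other in these windows. The Itga4 window holds 1 match, the RUNX letters read on the other strand, 60 to 55 bases before the start, and the Itgb7 window holds no match to any of the sets. Among 32851 promoters of that length, 13.8% hold the TCF letters, 14.0% the RUNX letters and 19.7% the ETS letters. RefSeq promoters were matched for 5 of the 8 genes, and of the other 3 matched windows that of Itgb1 holds no match, that of Itga2b holds 1 ETS match and that of Itgam holds 1 TCF match, 36 to 31 bases before its start. A match in this window is a description of letters, not of binding.

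After filtering, 810 ALP, 1829 ILCpro_WT and 716 ILCpro_KO cells remained, with median UMI (unique molecular identifier) counts per cell of 4544.5, 2897 and 5309. The ILCpro_WT library was thus the shallowest per cell, and 63.4% of its cells were called G1 from cell cycle genes, against 30.4% in ALP and 37.3% in ILCpro_KO. Levels below are UMIs summed over a library and scaled to 1000000 UMIs (CPM), compared between libraries for the same gene, with exact 95% Poisson intervals. Folds are ratios of CPM with exact 95% intervals. All intervals cover counting error, and since each group is 1 library no test between groups was possible. ILCpro_WT and ALP shared 4 barcode sequences, ILCpro_KO and ILCpro_WT shared 1, and ILCpro_KO and ALP shared none. The genes of the gates checked the labels: Tcf7 stood at 1.46 CPM in ALP, 362 in ILCpro_WT and 57.3 in ILCpro_KO, and the lesion in the null allele is not described in the labels, so this row may not check it. Flt3, the receptor that marks lymphoid progenitors, stood at 288, 17.6 and 67.7 CPM.

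Itga4, the alpha chain of the sorted antigen, had 686 UMIs in ALP, 2895 in ILCpro_WT and 2114 in ILCpro_KO. Its levels were 167 CPM (154 to 180) in ALP, 475 (458 to 493) in ILCpro_WT and 482 (462 to 503) in ILCpro_KO. Both ILC libraries lay above ALP, 2.85-fold (2.62 to 3.10) for ILCpro_WT and 2.89-fold (2.65 to 3.16) for ILCpro_KO. The gene lies on chromosome 2, 79255426 to 79333123 on the plus strand of GRCm38, and overlaps Cerkl on the other strand.

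Itgb7 stood at 24.3 CPM (19.8 to 29.6; 100 UMIs) in ALP, 106 (97.7 to 114; 644 UMIs) in ILCpro_WT and 162 (150 to 174; 710 UMIs) in ILCpro_KO. It was 4.35-fold (3.52 to 5.42) above ALP in ILCpro_WT and 6.67-fold (5.40 to 8.30) above ALP in ILCpro_KO, and these ratios share the ALP library. The gene lies on chromosome 15, 102215995 to 102231944 on the minus strand, with no overlapping gene. Of the other members, Itgb1 lies on chromosome 8, Itgal and Itgam on 7, Itgb2 on 10 and Itga2b and Itgae on 11; Itgae overlaps Haspin on the other strand.

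Both ILC libraries were sorted as a4b7+, so the gate chose no side in the comparison of the genotypes. It did limit both libraries to cells with the antigen on the surface, which may narrow a difference in its chains. Cells outside the gate are not compared. Itga4 did not differ beyond counting error, at 1.02-fold in ILCpro_KO over ILCpro_WT (0.959 to 1.07). Its log2 ratio of 0.02 kept its sign under 10 of 12 alternatives, up to 0.39 in cells called G1. It turned to -0.08 when CPM were scaled without ribosomal and mitochondrial genes and to -0.10 with median of ratios size factors. No direction is therefore given. Itgb7 was 1.53-fold higher in ILCpro_KO (1.38 to 1.71), and the sign held under all 12 alternatives tried. Over the whole libraries, the pair of chains of the sorted antigen thus differed between genotypes in Itgb7 RNA and not detectably in Itga4 RNA. Within clusters (below), both chains were higher in ILCpro_KO beyond counting error in clusters 1 and 4, and neither in clusters 6 and 8.

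**Figure D1:**
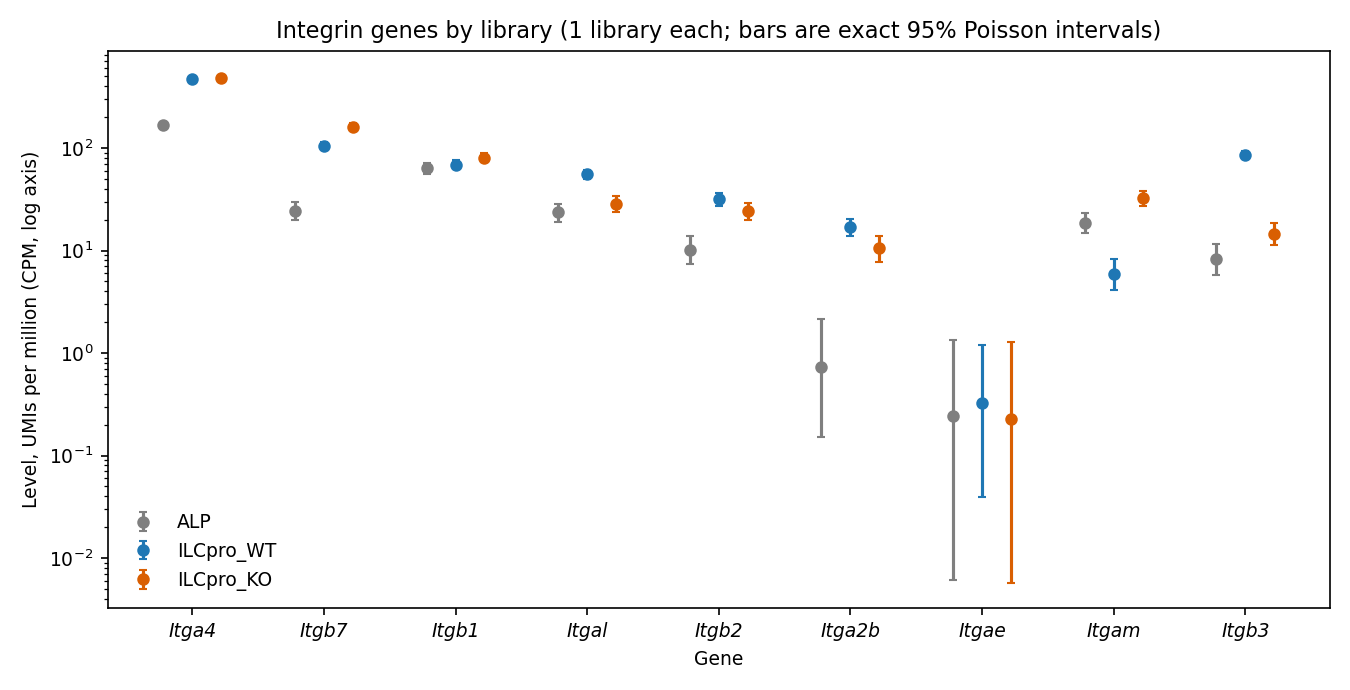
Levels of the 8 genes and of Itgb3 in the 3 libraries (x axis, gene; y axis, CPM on a log axis; points, 1 library each; bars, exact 95% Poisson intervals). Itga4 and Itgb7 sit lowest in ALP, Itgb1 is nearly level, and Itgal, Itga2b and Itgb3 are highest in ILCpro_WT.

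Itgb1, the other partner of the a4 chain, differed little between the libraries. It stood at 63.2 CPM (55.7 to 71.3) in ALP, 68.9 (62.5 to 75.8) in ILCpro_WT and 80.7 (72.6 to 89.6) in ILCpro_KO. ILCpro_WT over ALP was 1.09-fold, with an interval that spans no difference (0.932 to 1.28). ILCpro_KO stood 1.28-fold above ALP (1.09 to 1.51) and 1.17-fold above ILCpro_WT (1.01 to 1.35), the latter at the edge of counting error.

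The LFA-1 chains were higher in ILCpro_WT than in ALP and lower in ILCpro_KO than in ILCpro_WT. Itgal stood at 23.6 CPM (19.1 to 28.8) in ALP, 55.5 (49.7 to 61.7) in ILCpro_WT and 28.7 (23.9 to 34.2) in ILCpro_KO. ILCpro_WT was 2.35-fold (1.87 to 2.98) above ALP, and ILCpro_WT was 1.93-fold (1.57 to 2.39) above ILCpro_KO. The Itgal levels of ALP and ILCpro_KO did not differ beyond counting error (1.22-fold, 0.928 to 1.61). Itgb2 stood at 10.2 CPM (7.35 to 13.8) in ALP, 31.5 (27.2 to 36.3) in ILCpro_WT and 24.2 (19.8 to 29.2) in ILCpro_KO. It was 3.09-fold (2.20 to 4.42) and 2.37-fold (1.64 to 3.47) above ALP in the ILC libraries, and 1.30-fold (1.02 to 1.67) higher in ILCpro_WT than in ILCpro_KO. Over the whole ILCpro_KO library, Itgb2 thus stood above ALP beyond counting error and Itgal did not. The log2 ratio of Itgb2 in ILCpro_KO against ALP, 0.76, ran from 0.37 to 1.23 over 11 alternatives. Its level in ILCpro_KO differed between clusters (below).

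Itga2b had 3 UMIs in ALP (0.729 CPM, 0.150 to 2.13), 103 in ILCpro_WT (16.9 CPM, 13.8 to 20.5) and 46 in ILCpro_KO (10.5 CPM, 7.68 to 14.0). The ratio to ALP was 23.2 in ILCpro_WT (7.71 to 114) and 14.4 in ILCpro_KO (4.63 to 72.4), wide because ALP held 3 UMIs. ILCpro_WT was 1.61-fold above ILCpro_KO (1.13 to 2.33). Of the 46 ILCpro_KO UMIs, 20 came from 28 cells of a cluster led by the basophil genes Prss34 and Mcpt8 (cluster 12 below). Without that cluster, a setting added after the values were seen, ILCpro_KO stood at 6.16 CPM and ILCpro_WT at 16.4, a 2.67-fold difference (1.72 to 4.29), and ALP kept 1 UMI. At 1000 UMIs per cell the log2 ratio between genotypes shrank from -0.39 to -0.070. Its partner Itgb3, not among the 8 genes, was the other integrin chain with at least 20 CPM in any library. Itgb3 stood at 8.26 CPM (5.72 to 11.5) in ALP, 85.5 (78.3 to 93.2) in ILCpro_WT and 14.6 (11.2 to 18.6) in ILCpro_KO. The b3 chain was thus 10.3-fold (7.31 to 15.1) above ALP in ILCpro_WT and 5.86-fold (4.51 to 7.72) higher there than in ILCpro_KO, while ILCpro_KO and ALP lay 1.77-fold apart (1.15 to 2.76).

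Itgam had 77 UMIs in ALP, 36 in ILCpro_WT and 143 in ILCpro_KO, or 18.7 CPM (14.8 to 23.4), 5.91 (4.14 to 8.18) and 32.6 (27.5 to 38.4). ILCpro_KO was 5.52-fold above ILCpro_WT (3.81 to 8.20) and 1.74-fold above ALP (1.31 to 2.33), and ALP was 3.17-fold above ILCpro_WT (2.11 to 4.85). The deposited gene list also gives the name Itgam to a second row, a gene model that GENCODE vM21 calls Gm49368 and that overlaps Itgam on the same strand of chromosome 7, so reads from the shared stretch may have been split between the rows. That row was highest in ALP and lowest in ILCpro_KO, with 40.1 CPM (34.2 to 46.7) in ALP, 34.0 (29.5 to 38.9) in ILCpro_WT and 25.1 (20.6 to 30.2) in ILCpro_KO. The row named Itgam by GENCODE held 31.8% of the UMIs of both rows in ALP, 14.8% in ILCpro_WT and 56.5% in ILCpro_KO. With both rows summed, a setting added after the values were seen, the levels were 58.8, 39.9 and 57.7 CPM, and ILCpro_KO over ILCpro_WT came to 1.45-fold (1.21 to 1.73). Between genotypes, ILCpro_KO was thus higher in the row named Itgam by GENCODE and in the sum, and lower in the second row. Direction and size depended on the row counted. Summed, ALP and ILCpro_KO did not differ beyond counting error (0.981-fold, 0.820 to 1.18).

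Markers of myeloid cells were also highest in ILCpro_KO, and their part in the Itgam difference was not tested. The 11 neutrophil and monocyte markers summed to 979 CPM in ALP, 494 in ILCpro_WT (Ngp and Camp at 0) and 4745 in ILCpro_KO, and the 11 conventional dendritic cell markers to 803 (Batf3 at 0), 752 and 1616 CPM (Xcr1 at 0). Without the clusters of other lineages, the conventional DC-like cells and the clusters led by basophil, haemoglobin or Lyz2 genes, the log2 ratio of Itgam between genotypes was 1.29, against 1.42 over all cells.

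Itgae was at or under the floor of 3 UMIs in every library, with 1 UMI in ALP, 2 in ILCpro_WT and 1 in ILCpro_KO, so no fold is given. The partner that would pair with Itgb7 besides Itga4 was therefore not detectable above the floor of 0.729, 0.492 and 0.684 CPM.

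On a log2 scale with 10 CPM added to each level, which understates the change of low genes, a difference of at least 1 (2-fold) was counted. In ILCpro_WT against ALP, 4 of the 8 genes were at least 2-fold higher (Itga4, Itgb7, Itgb2 and Itga2b) and none was lower, beside 1.29% of 15738 genes with a UMI in either library that were higher and 1.87% that were lower. Of 5953 genes with at least 20 CPM in either library, as 5 of the 8 had, 2.72% were higher and 4.38% lower. Itgb2, at 1.04, lay just inside the limit and Itgal, at 0.96, just outside it. In ILCpro_KO against ALP, 2 of the 8 were higher (Itga4 at 1.48 and Itgb7 at 2.33) and none was lower, beside 1.25% of 15553 genes higher and 0.887% lower. Of 5999 genes with at least 20 CPM, 2.58% were higher and 2.03% lower. In ILCpro_KO against ILCpro_WT, 1 of the 8 was higher (Itgam at 1.42) and none was lower, beside 0.886% of 15909 genes higher and 0.522% lower. Of 5877 genes with at least 20 CPM, 2.18% were higher and 1.23% lower. With both Itgam rows summed the count was 0. The median log2 difference of the 8 genes was 1.001, 0.66 and 0.0036 in the 3 comparisons, and that of all genes with a UMI was -0.02, 0.01 and 0.03. Itga4 and Itgb7, the sort genes, are among the members counted in both comparisons with ALP, which also share that library.

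The share of cells with a UMI was compared after thinning each cell to 1000 UMIs, which left out 4 ILCpro_WT cells and none of the others. Itga4 was seen in 14.1% of ALP cells (11.8 to 16.7, Clopper-Pearson 95%), 34.6% of ILCpro_WT (32.4 to 36.9) and 34.5% of ILCpro_KO (31.0 to 38.1). Before thinning these shares were 46.0%, 66.3% and 75.8%, so the higher share in ILCpro_KO was not seen at equal depth. To gauge free RNA, the lowest share of any cluster with at least 20 cells was taken, 12.1% in ALP cluster 5 (lymphoid progenitor-like, median 6943.5 UMIs), 14.8% in ILCpro_WT cluster 14 (natural killer, NK, cell-like, 3479 UMIs) and 4.55% in ILCpro_KO cluster 16 (T cell-like, 3875 UMIs).

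Itgb7 was seen in 2.59% of ALP cells (1.61 to 3.94), 10.1% of ILCpro_WT (8.79 to 11.6) and 16.1% of ILCpro_KO (13.4 to 19.0), and in 10.6%, 27.4% and 54.7% before thinning. The ILCpro_KO share stayed above that of ILCpro_WT at equal depth. Its lowest cluster shares were 2.09% in ALP cluster 0, 4.17% in ILCpro_WT cluster 4 and 0 of 22 cells in the T cell-like ILCpro_KO cluster 16, which allows a share of up to 13.6% (for a count of 0, limits here are 3 counts over the cells). Clusters 0 and 5 made up 65.1% and 29.6% of ALP cells, so their shares give no separate background for that library, and the ALP shares of Itga4 and Itgb7 are not read as expression.

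The other members were seen in fewer cells. Itgb1 shares were 6.54%, 6.74% and 7.82% in ALP, ILCpro_WT and ILCpro_KO, with overlapping intervals. Itgal shares were 2.10%, 5.48% and 3.63%, Itgb2 shares 0.617%, 4.05% and 2.65%, and Itga2b shares 0.247%, 1.37% and 1.26%. At this depth the order of the libraries in Itgal and Itgb2 was that of their CPM. At 2000 UMIs per cell Itgal kept it, but Itgb2 was seen in 5.19% of ILCpro_WT and 6.14% of ILCpro_KO cells with overlapping intervals, so no order between the genotypes is read from the Itgb2 shares. The lowest cluster shares in ILCpro_WT and ILCpro_KO were 1.79% and 0 of 84 cells for Itgal (which allows up to 3.57%), and 0 of 112 and 0 of 142 cells for Itgb2 (up to 2.68% and 2.11%). For Itgb1 they were 4.43% and 3.57%, so the Itgb1 shares lay near the lowest of their libraries. Before thinning, Itgb1 was seen in 26.2%, 19.6% and 37.7% of cells and Itgal in 10.2%, 16.3% and 15.4%. Itgam was seen in 2.10%, 0.767% and 3.91% of cells, and Itgae in 0 of 810 ALP cells, 0 of 1825 ILCpro_WT cells and 0.140% of ILCpro_KO cells. The counts of 0 allow shares of up to 0.370% and 0.164% at that depth.

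**Figure D2:**
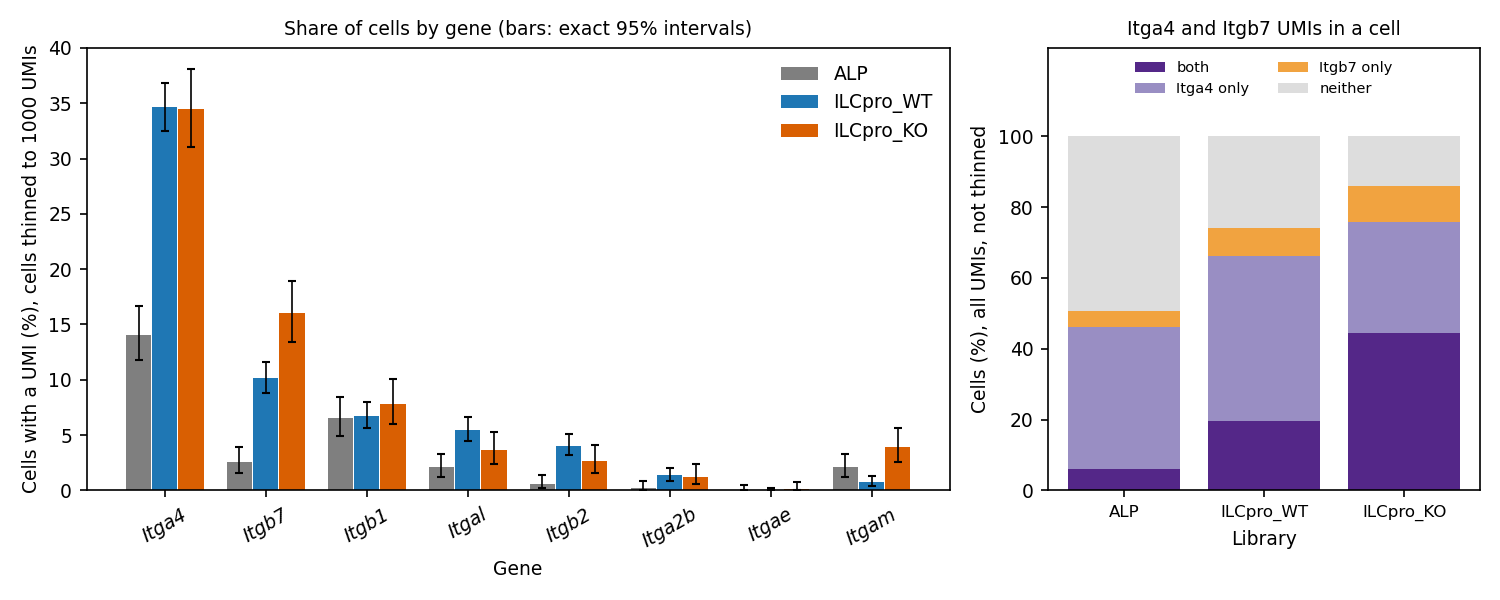
Left, share of cells with a UMI of each gene after thinning to 1000 UMIs (y axis, percent of cells; bars, exact 95% intervals; colours, libraries); right, cells by whether they held a UMI of Itga4, Itgb7, both or neither, before thinning (y axis, percent of cells). Itga4 shares are 34.6% and 34.5% in the ILC libraries, and cells with both chains make up 5.93%, 19.5% and 44.6% of ALP, ILCpro_WT and ILCpro_KO at unequal depths.

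Many cells sorted as a4b7+ held no UMI of one or both chains of the antigen. With all UMIs, both Itga4 and Itgb7 were seen in 5.93% of ALP cells (4.40 to 7.78), 19.5% of ILCpro_WT (17.7 to 21.4) and 44.6% of ILCpro_KO (40.9 to 48.3), and neither in 49.3%, 25.9% and 14.0%. These shares rise with depth by construction and are not compared across libraries. At 1000 UMIs per cell, Itgb7 was seen in 11.4% of ILCpro_WT cells with an Itga4 UMI (9.02 to 14.1) and in 9.47% of those without (7.87 to 11.3). In ILCpro_KO the shares were 20.2% (15.4 to 25.8) and 13.9% (10.9 to 17.3), and in ALP 0.877% (0.0222 to 4.79) and 2.87% (1.76 to 4.40). In each library the intervals of cells with and without Itga4 overlapped. Overlap of separate intervals does not test their difference, and a link between the pair within cells was not tested. Of cells with an Itgal UMI, 3.0% in ILCpro_WT also held Itgb2 (0.623 to 8.52), and 4.12% of cells without Itgal did (3.23 to 5.16). The Mac-1 pair was the one whose intervals did not overlap, in ILCpro_KO alone of the 3 libraries: Itgb2 was seen in 4 of 28 cells with an Itgam UMI (14.3%, 4.03 to 32.7) and in 2.18% of those without (1.23 to 3.57). This rests on 4 cells and on the row named Itgam by GENCODE. Both genes were high in ILCpro_KO cells of cluster 13 below (Itgam 130 CPM, Itgb2 179), and a link apart from cell type was not tested.

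To place the genes by stage, cells were clustered without any integrin gene, cell type marker or cell cycle gene. Of 17 clusters, numbered 0 to 16, clusters 0 and 5 were lymphoid progenitor-like (markers Flt3, Dntt and Rag2 among others) and held 527 and 240 of the 810 ALP cells. Clusters 2, 3 and 11 were ILC precursor (ILCP)-like and held 437, 316 and 62 ILCpro_WT cells, against 9, 30 and 0 ILCpro_KO cells. Cluster 11 was led by Stab2, Icos and Pxdc1. Cluster 8 was conventional DC-like, and cluster 10, with 74 ILCpro_KO cells, neutrophil and monocyte-like. Clusters 1 (led by Egln3, Hist1h2bc and Nfil3), 4 (Hist1h1b and Ube2c, none of its cells called G1), 6 (Bhlhe41, Asb2 and Cd7), 7 (Serpine2, Fgf3 and Mdga1) and 9 (Kmt2d and Actb) stayed unnamed. The names were rebuilt here from markers, and 16 pools of a library and a cluster with at least 50 cells were used for levels. The orders given next are among these 16 pools, and smaller groups of cells follow after them.

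Among the pools, Itga4 was highest by CPM in cluster 1 of both ILC libraries and lowest in DC-like cells of ILCpro_WT and myeloid cells of ILCpro_KO. In ILCpro_WT it ran from 261 CPM (204 to 328) in the conventional DC-like cluster 8 to 632 (583 to 683) in cluster 1, a 2.42-fold range (1.90 to 3.13). Clusters 7, 4, 9 and 6 lay between, at 574, 550, 542 and 515 CPM, with intervals that overlapped each other and that of cluster 1. The ILCP-like clusters 3, 11 and 2 lay below them at 466, 406 and 353 CPM, and the intervals of clusters 2 and 8 overlapped. At equal depth, the share of ILCpro_WT cells with an Itga4 UMI was 49.3% (42.2 to 56.3) in cluster 7 and 42.6% (37.0 to 48.4) in cluster 1. It was 24.7% in cluster 2 and 27.4% in cluster 8, so these shares did not place cluster 1 highest or cluster 8 lowest. In ILCpro_KO, Itga4 ran from 246 CPM (211 to 286) in the neutrophil and monocyte-like cluster 10 to 749 (687 to 815) in cluster 1. The interval of cluster 1 overlapped that of cluster 4 in ILCpro_KO (603 to 715). Each of the 14 ILC pools of at least 50 cells was above the 178 CPM (161 to 197) and 155 CPM (138 to 175) of the ALP clusters 0 and 5, the side the gate selected. Itga4 also stood among the 10 leading genes of cluster 1. The clustering did not use it, but leading genes were ranked against all other kept cells, ALP cells sorted as a4b7- among them. That rank thus includes the difference the gate selected.

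Itgb7 followed another order. Among the ILCpro_WT pools it was highest in cluster 6, at 235 CPM (173 to 312), and in the conventional DC-like cluster 8, at 225 (173 to 288), which did not differ beyond counting error. It was lowest in the cycling cluster 4, at 62.8 CPM (48.1 to 80.5), and the other ILCpro_WT pools held 80.4 to 128 CPM. Among the ILCpro_KO pools clusters 8 and 6 were again highest, at 277 CPM (233 to 328) and 242 (206 to 281), and cluster 10 lowest at 77.4 (58.3 to 100.8). By CPM, the conventional DC-like cells thus had the least Itga4 and nearly the most Itgb7 of the 9 ILCpro_WT pools. Clusters 0 and 5 of ALP held 19.0 and 28.0 CPM of Itgb7.

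Among the pools, Itgal was highest in clusters 11 and 2, both called ILCP-like by their count of markers. In ILCpro_WT it stood at 119 CPM (74.6 to 180) in cluster 11 and 105 (86.7 to 126) in cluster 2, and at 64.2 or less in the other pools, down to 29.4 (19.7 to 42.2) in cluster 4. Itgb3 had the sharpest pattern of the chains shown, with 308 CPM (276 to 342) in cluster 2 and 233 (168 to 313) in cluster 11, and 49.7 or less elsewhere, so that the clusters with most Itgb3 were those with most Itgal. ILCpro_KO placed 9 and 0 cells in those clusters, too few for a pool.

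Itgb2 in ILCpro_WT stood at 74.9 CPM (41.9 to 124) in cluster 6, 70.3 (37.4 to 120) in cluster 11, 57.3 (44.2 to 73.2) in cluster 2 and 53.5 (29.97 to 88.3) in cluster 8, with overlapping intervals. It was at 37.5 CPM (26.8 to 51.1) in cluster 3 and at 20.9 or less in clusters 7, 1, 4 and 9. Itga2b peaked in another ILCP-like cluster, cluster 3, at 42.2 CPM (30.8 to 56.4), where the ILCP-like cluster 2 held 11.6 (6.20 to 19.9) and cluster 11 had 0 UMIs. Both ALP clusters 0 and 5 had 0 UMIs of Itga2b. The aIIb and b3 chains, partners on platelets, thus had their highest levels in different clusters. Itgb1 stayed between 48.7 and 84.9 CPM over the ILCpro_WT pools, a range within counting error (1.75-fold, 0.736 to 4.44). Among the ILCpro_KO pools, Itgb2 stood at 46.5 CPM in cluster 8, 42.5 in cluster 6 and 18.3 in cluster 10. It stood at 7.37 CPM in cluster 4 and 2.75 in cluster 1 of ILCpro_KO, where the ALP clusters 0 and 5 held 10.7 and 8.39.

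Groups under 50 cells held some of the highest and lowest values. In 26 ILCpro_KO cells of cluster 13 (led by Lyz2, Lgals3 and Ccl6), Itgb7 stood at 382 CPM (281 to 509), Itgb2 at 179 (112 to 271) and Itgam at 130 (74.4 to 211), while Itga4 stood at 73.2 (33.5 to 139). In 28 ILCpro_KO cells of cluster 12 (led by Prss34, Mcpt8 and Prg2), Itga2b stood at 124 CPM (75.8 to 192). In 27 NK cell-like ILCpro_WT cells of cluster 14, Itgb1 stood at 298 CPM (201 to 426), Itgal at 119 (61.7 to 208), level with cluster 11, and Itga4 at 109 (54.6 to 196), below the conventional DC-like cells. The 22 T cell-like ILCpro_KO cells of cluster 16 held 2 UMIs of Itga4 (20.1 CPM, 2.44 to 72.8) and 0 of Itgb7, although they came from the a4b7+ gate. Itga4 in clusters 13, 14 and 16 was thus at or below the level of the ALP clusters.

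**Figure D3:**
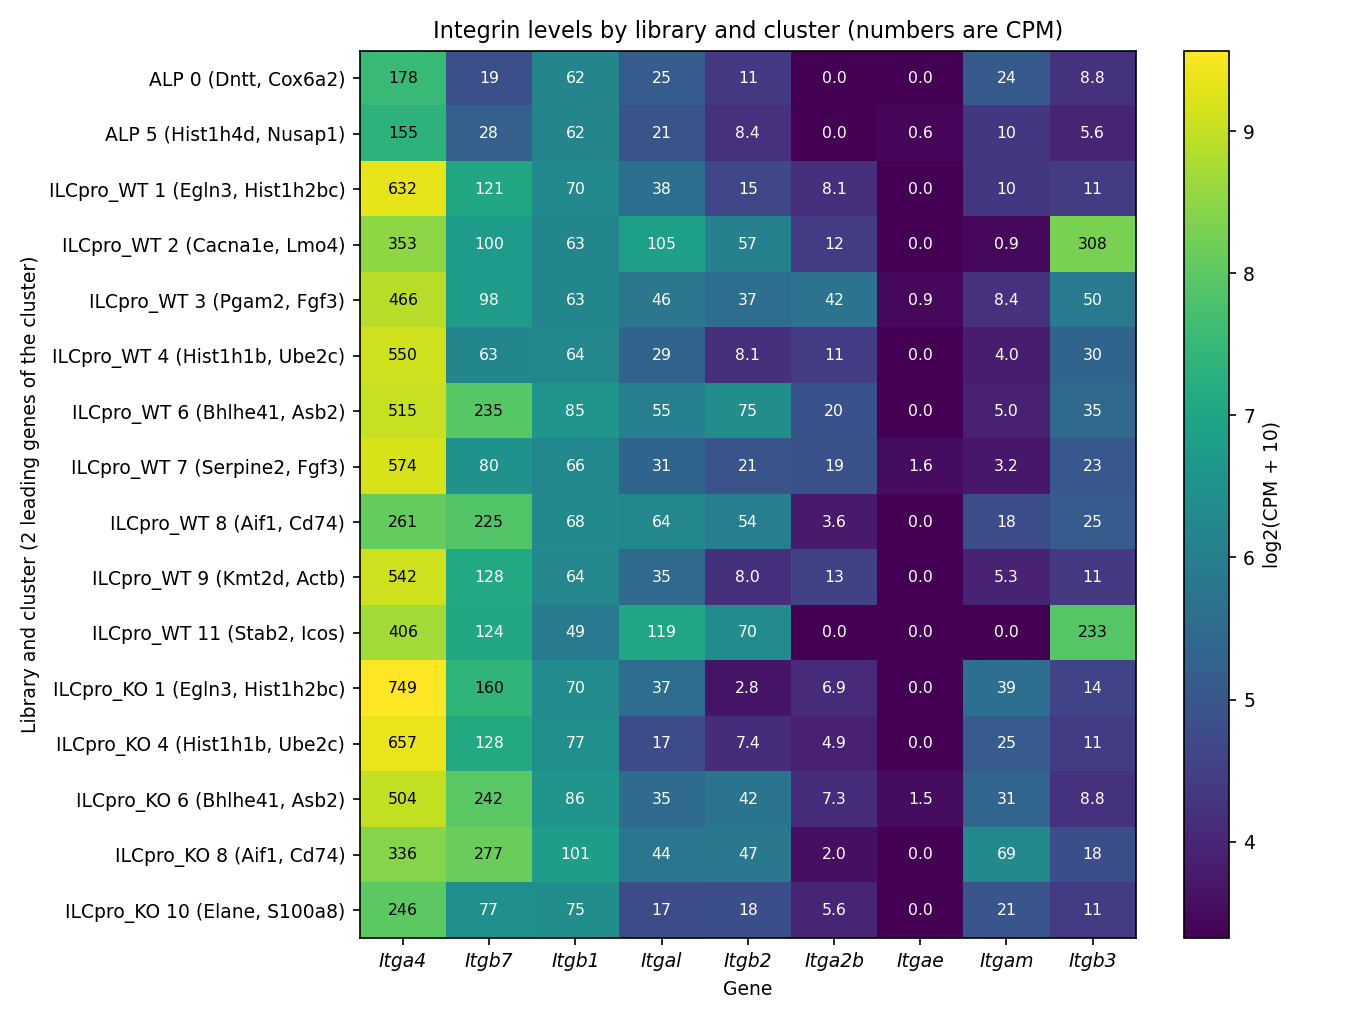
Levels by library and cluster for the 16 pools with at least 50 cells (rows, library, cluster number and its leading genes; columns, genes; colour, log2 of CPM with 10 added; numbers, CPM), to be read down a column. Itga4 reaches 749 CPM in ILCpro_KO cluster 1, Itgb7 277 CPM in ILCpro_KO cluster 8 and Itgb3 308 CPM in ILCpro_WT cluster 2.

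Clusters 1, 4, 6 and 8 had at least 50 cells of both ILC libraries and allowed the genotypes to be compared within a cluster. Itgb7 was higher in ILCpro_KO in all 4, by 1.32-fold (1.01 to 1.71) in cluster 1, 2.04-fold (1.47 to 2.83) in cluster 4, 1.03-fold (0.740 to 1.45) in cluster 6 and 1.23-fold (0.908 to 1.69) in cluster 8. The interval left out no difference in clusters 1 and 4 and not in clusters 6 and 8. With the clusters weighted equally, the log2 ratio of Itgb7 was 0.31, against 0.57 over all cells; ILCpro_KO also had a larger share of its cells than ILCpro_WT in clusters 6 and 8 (20.4% and 12.4% against 3.99% and 4.59%), the clusters with most Itgb7.

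Itga4 was higher in ILCpro_KO in clusters 1, 4 and 8, by 1.19-fold (1.06 to 1.33), 1.20-fold (1.06 to 1.35) and 1.29-fold (0.973 to 1.72), and stood at 0.979-fold (0.783 to 1.23) in cluster 6. So cluster 1 and cluster 4 each showed a difference in Itga4 that the whole libraries did not. ILCpro_KO holds 74 cells of the neutrophil and monocyte-like cluster 10, with 246 CPM of Itga4, and ILCpro_WT 11. Without the clusters named for other lineages the log2 ratio of Itga4 between genotypes was 0.16, and it was 0.02 with them.

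Itgam was higher in ILCpro_KO in all 4 shared clusters, by 3.82-fold (1.80 to 8.80) in cluster 1, 6.07-fold (2.03 to 24.4) in cluster 4, 6.15-fold (0.990 to 255) in cluster 6 and 3.85-fold (1.499 to 12.6) in cluster 8. With both Itgam rows summed the values were 1.42-fold (0.929 to 2.18), 1.38-fold (0.817 to 2.33), 1.86-fold (0.778 to 5.37) and 3.40-fold (1.51 to 8.97), so that the conventional DC-like cluster 8 was the one whose interval left out no difference. Itgal, Itgb2 and Itga2b were lower in ILCpro_KO in all 4 shared clusters, but of these 12 intervals that of Itgb2 in cluster 1 was the one to leave out no difference, with 2.75 CPM (2 UMIs) in ILCpro_KO and 15.2 in ILCpro_WT. With finer clusters (resolution 1.5) Itgal was higher in ILCpro_KO in 2 of 5 shared clusters, Itga2b in 1 of 5 and Itgb7 in 4 of 5, and without the highest doublet scores Itgb2 was higher in 1 of 4. Itgal stood at 0.968-fold (0.569 to 1.63) in cluster 1, so its difference between whole libraries was not detectable in that cluster. Itgb1 stood between 1.01-fold and 1.49-fold in the 4 clusters, within counting error in each.

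**Figure D4:**
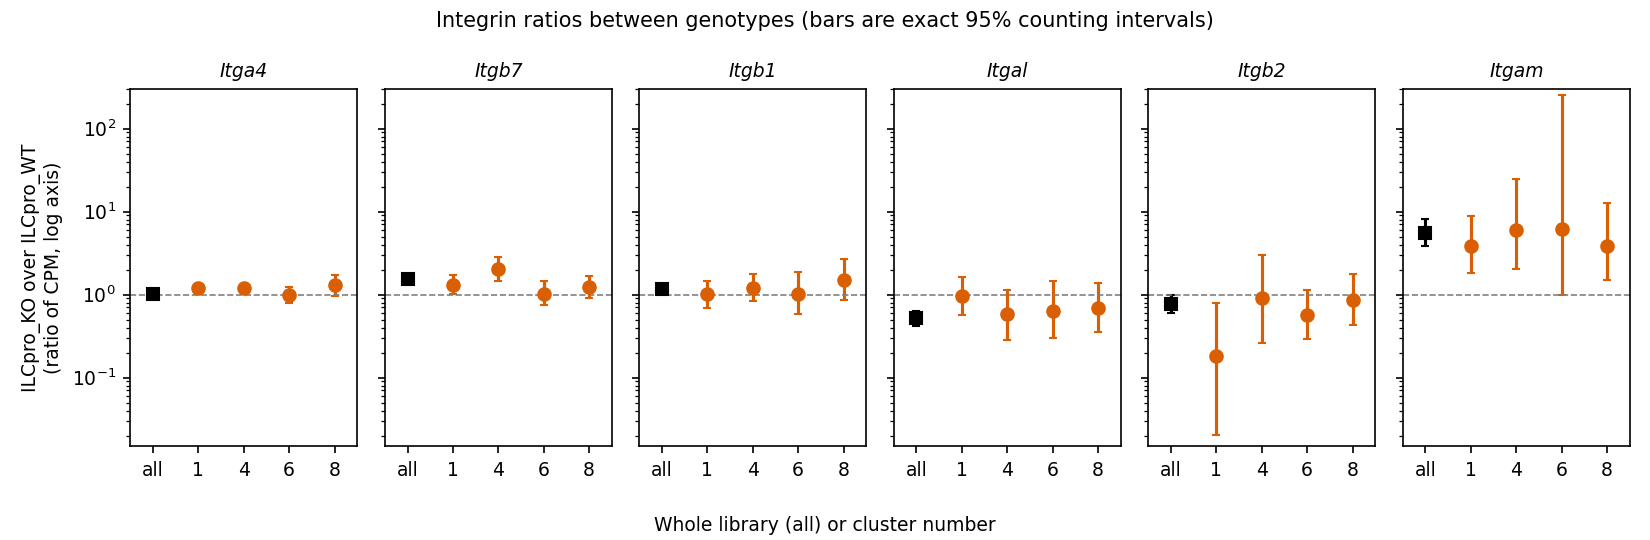
Ratio of ILCpro_KO to ILCpro_WT for 6 genes over the whole libraries (black squares) and within clusters 1, 4, 6 and 8 (orange points; x axis, cells used; y axis, ratio of CPM on a log axis; bars, exact 95% counting intervals; dashed line, no difference). Itgb7 lies above the line in all 4 clusters, at 1.03-fold to 2.04-fold, and Itgal below it, at 0.586-fold to 0.968-fold.

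The genes most like each member over the 16 pools were found by Pearson's r of log2(CPM + 10) among 4248 genes with at least 50 CPM in some pool; pools of a library share its depth and preparation. Itga4 was closest to Cpa3, a mast cell protease gene (r = 0.95), Mif4gd (0.87) and Scamp3 (0.87). Itgb7 was closest to Nfkb1, a subunit of NF-kB (0.94), Dbnl (0.91) and Cotl1 (0.89), and Itgal to Arhgef1 (0.94), Ahcyl2 (0.94) and Capns1 (0.93). Itgb2 was closest to S100a6 (0.89), S100a4 (0.88) and Ckb (0.87), Itga2b to Gse1 (0.89), Emid1 (0.87) and Tnni1 (0.87), Itgb1 to Napsa (0.89), Gusb (0.87) and Rogdi (0.87), and Itgam to Hsd17b4 (0.92), Mtpn (0.90) and Vps35 (0.90). Among chain pairs, r was 0.53 for Itga4 with Itgb7, 0.75 for Itgal with Itgb2, 0.86 for Itgal with Itgb3 and 0.16 for Itga2b with Itgb3. Over the 10 pools with at least 100 cells these were 0.82, 0.67, 0.90 and 0.45, so the values for Itga4 with Itgb7 and Itga2b with Itgb3 depended on the pools used. Over those pools, Cpa3 stayed closest to Itga4 (0.97), and Mif4gd (0.95) took the place of Nfkb1 for Itgb7. Each set of pools included ALP clusters, sorted as negative for the antigen that Itga4 and Itgb7 encode. The r values of Itga4 and Itgb7 thus include the difference the gate selected, and r without the ALP pools was not computed. Itgae was near 0 in all pools and no likeness is given.

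Of 28 genes for activating integrins and linking them to actin, 1 was at least 2-fold higher and 1 lower in ILCpro_WT against ALP, none in ILCpro_KO against ALP, and 1 higher and 1 lower in ILCpro_KO against ILCpro_WT; their medians were -0.07, 0.16 and 0.12 on the log2 scale, beside -0.02, 0.01 and 0.03 for all genes. Of the list, 20, 19 and 20 genes had at least 20 CPM in the 3 comparisons, and among all such genes 2.72%, 2.58% and 2.18% were higher and 4.38%, 2.03% and 1.23% lower, so 1 gene of the list was near the background. The adaptor gene Skap1, expressed in T cells, had 0 UMIs in ALP, 24.9 CPM in ILCpro_WT, at least 34.2-fold higher when ALP is set at its floor of 3 UMIs, and 5.25 in ILCpro_KO. Its relative Skap2 went the other way, at 103 CPM in ALP, 51.5 in ILCpro_WT and 131 in ILCpro_KO. Rasgrp2, which activates Rap1 and so integrins, stood at 226, 103 and 191 CPM. These genes were named for the largest differences in the list, and Apbb1ip, a Rap1 effector that recruits talin, stood at 93.8, 62.7 and 63.2 CPM. Tln1 (talin) and Fermt3 (kindlin-3), which bind beta chain tails, stood at 355 and 131 CPM in ILCpro_WT and at 386 and 128 in ILCpro_KO, above the 250.5 and 88.0 of ALP.

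Among 18 other integrin chains, Itgb3 was the one to pass 20 CPM; it was at least 2-fold higher in ILCpro_WT than in ALP and lower in ILCpro_KO than in ILCpro_WT. Of 21 integrin ligand genes none was 2-fold apart between ILCpro_WT and ALP, and 1 was higher in ILCpro_KO in both its comparisons, Fn1 (fibronectin), named after its values were seen, at 0.972, 1.80 and 18.2 CPM in ALP, ILCpro_WT and ILCpro_KO. Among all genes with a UMI in either library, 1.29% were higher and 1.87% lower in ILCpro_WT against ALP. These shares were 1.25% and 0.887% in ILCpro_KO against ALP, and 0.886% and 0.522% in ILCpro_KO against ILCpro_WT. Of the ligands, 1 had at least 20 CPM in each comparison, so a count of 1 is not read against these shares. Fn1 was also among the leading genes of cluster 13, which held 26 ILCpro_KO, 4 ILCpro_WT and 2 ALP cells. Icam2, which binds LFA-1, stood at 65.8 CPM in ALP, 37.6 in ILCpro_WT and 40.1 in ILCpro_KO.

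Of 13 other adhesion and homing genes, 1 was at least 2-fold higher and 3 lower in ILCpro_WT against ALP, 1 higher and 1 lower in ILCpro_KO against ALP, and 1 higher in ILCpro_KO against ILCpro_WT. Among all genes at 20 CPM or more, 2.72% were higher and 4.38% lower in the first of these comparisons, 2.58% and 2.03% in the second and 2.18% and 1.23% in the third. The tetraspanin gene Cd63 was the higher one each time, at 12.9 CPM in ALP, 56.8 in ILCpro_WT and 128 in ILCpro_KO. Cd53 and Cd81, tetraspanins too, and Cd44, the hyaluronan receptor, were the lower ones in ILCpro_WT against ALP. Cd53 stood at 321 CPM in ALP, 106 in ILCpro_WT and 203 in ILCpro_KO, and Cd44 at 113, 45.8 and 89.0. Cd81 stood at 217, 96.6 and 70.7 CPM and was the lower one in ILCpro_KO against ALP. Of the other sort genes, Kit stood at 30.4, 66.1 and 22.8 CPM, Cd244 (2B4) at 43.5, 45.4 and 89.9 and Il7r at 146, 96.1 and 9.35.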

How the data were processed

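Sorted bone marrow cells were measured with 10x Genomics Chromium v2 libraries, 1 for each of 3 groups. The authors deposited UMI counts for every gene in each barcode. Cell Ranger 2.0.1, STAR 2.5.1b, bcl2fastq 2.17 and build mm10 appear in the submitters' processing notes, and the cell calling settings are not given in the sources used here. Barcodes numbered 812, 1834 and 716. Cells with at least 500 genes and at most 10% mitochondrial UMIs were kept, leaving 810, 1829 and 716, with 4115605, 6094683 and 4384061 UMIs. Counts were summed per library, or per library and cluster, and scaled to CPM. A gene counted as apart at a log2 difference of at least 1 with 10 CPM added. Intervals are exact at 95% (scipy 1.17.1) and cover counting error only. With 1 library a group no p-value was computed. Cells were clustered with scanpy 1.11.5 (2000 variable genes, 30 components, 15 neighbours, Leiden resolution 1.0). A cluster was called like a cell type from at least 3 markers, unless its leading genes went against it. Doublets were kept, and an alternative removed the highest Scrublet scores (5, 27 and 4 cells). Locations are from GENCODE vM21, promoters from RefSeq; Arhgap45 is listed as Hmha1.

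The genes named are the 8 members, other integrin chains at 20 CPM or more, up to 4 genes per list and comparison with the largest differences, the sort genes, the 3 genes most alike to each member, and leading genes of clusters. Members and lists were chosen with earlier results of these data known. The interval script was tested on simulated counts.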

Additional observations from a re-analysis of the deposited data

How the results depend on the processing

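Of 278 alternative log2 ratios of the 8 genes, 223 lay within the counting interval of the value reported, 55 outside it, and none of a gene at least 2-fold apart changed sign. For Itgb7 in ILCpro_WT against ALP, the log2 difference of 1.75 became 2.08 with 1 CPM added and 2.09 in cells called G1, and that of Itga4, 1.46, became 1.28 in G1 cells. In ILCpro_KO against ALP, Itgb7 (2.33) became 2.69 with 1 CPM added, 2.58 when CPM were averaged over cells and 2.93 in G1 cells, and Itga4 (1.48) became 1.67 in G1 cells, 1.63 without the clusters named for other lineages, 1.61 with thinned cells and 1.81 also without DC-like, basophil, haemoglobin and Lyz2 clusters; the count of genes apart rose from 2 to 4 with 1 CPM added, which shrinks low genes less. In ILCpro_WT against ALP the count of 4 ranged from 3 to 6, with Itgal at least 2-fold apart under 6 of 11 alternatives and Itgb2 under 10 of 11.

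In ILCpro_KO against ILCpro_WT, Itga4 (0.02) became -0.083 when scaled without ribosomal and mitochondrial genes, -0.10 with median of ratios factors, 0.12 averaged over cells, 0.39 in G1 cells, 0.16 without other lineages, 0.30 with the wider exclusion and 0.20 with clusters weighted equally. Itgb7 (0.57) became 0.85 in G1 cells, 0.73 without other lineages and 0.31 with clusters weighted equally. The count of genes apart fell from 1 to 0 with both Itgam rows summed. The cause of these shifts was not tested. The wider exclusion, equal cluster weights, the summed Itgam rows, the removal of cluster 12 for Itga2b and doublet removal in the cluster levels were chosen after seeing the data. At clustering resolutions of 0.5 and 1.5 the conventional DC-like cluster was lowest in Itga4 and highest in Itgb7 among ILCpro_WT clusters of at least 50 cells. At 0.5, with 11 clusters in place of 17, that cluster held 340 CPM of Itga4, against 261 at 1.0. Whether it had taken in cells of cluster 6 was not tested, so no order between DC-like cells and cluster 6 is read from that setting. No paired analysis was possible because each group is 1 library. Itgae, with at most 2 UMIs a library, and cell-level links between chains are limited by depth.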
